A study of Mus musculus with 14 samples.

Results

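RNA levels of 43 named genes of the DNA methylation and Polycomb machinery were read from a table of gene expression in 4 mouse cell populations. The genes were chosen by name as enzymes, cofactors and readers of DNA methylation or as subunits of Polycomb repressive complexes 1 and 2 (PRC1 and PRC2). Of the 43 genes, 42 have a row of their own among the 13180 genes of the table. Cbx6 shares 1 merged row with Npcd and Nptxr, so no value is given for it. The 42 genes divide into 14 of DNA methylation, 3 of KRAB zinc finger repression, 9 of PRC2 and 16 of PRC1.

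Poly(A) RNA was sequenced from 1 library of each population. DR-ESC were GFP-positive cells sorted on day 8 of neural differentiation in N2B27 medium and then grown further in stem cell medium. NPC(GFP-), labelled as neural progenitors, were GFP-negative cells sorted at day 8 of that protocol. Oct4-GFP-H-ESC were Oct4-GFP cells sorted for a high reporter signal, and Oct4-GFP-ESC were the unsorted line, kept in serum with LIF (10 ng/ml) and supported by fibroblast feeders given mitomycin C. LIF at 10 ng/ml is given for Oct4-GFP-H-ESC as well. The 4 populations share the Oct4-GFP reporter, in which green fluorescent protein marks activity of the pluripotency gene Oct4 (Pou5f1). The labels name a single reporter line and give no clone number, and the 10 chromatin samples of the series were not analysed here.

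DNA methylation is written on CpG sites by the de novo enzymes Dnmt3a and Dnmt3b and copied after replication by Dnmt1, which Uhrf1 guides to newly made DNA. Tet enzymes oxidise the methyl group, and the glycosylase Tdg removes the oxidised base. PRC2 places a repressive methyl mark on histone H3, and PRC1 adds ubiquitin to histone H2A. Canonical PRC1 carries a Cbx protein, which binds the PRC2 mark, and a Phc protein, which links complexes together. Variant PRC1 carries Rybp or its relative Yaf2 instead. Embryonic stem cells are known for high Dnmt3b, Dnmt3l, Tet1, PRC2 and Cbx7, and several of these subunits are exchanged for a paralogue during differentiation.

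Values are FPKM, a level per transcript length and sequencing depth, and differences are log2((FPKM + 1) ratios), a scale that understates the change of low genes. Higher and lower are said of genes past a 2-fold size, a log2 ratio of 1 or more or of -1 or less, where the larger of both values reached 1 FPKM. With 1 library per population no difference has a replicate check, so no error, interval or p-value can be given. The read depth is unknown. Each of the 42 genes reached the 1 FPKM minimum in each of the 5 comparisons, and none is listed at 0. By RefSeq 6 of them overlap another protein-coding gene, among them Dnmt3l with Aire and Trim28 with Gm31649, and since the strand of counting is not stated such genes may share reads. The 8 pluripotency markers summed to 2067 FPKM in DR-ESC, 106 in NPC(GFP-), 2741 in Oct4-GFP-H-ESC and 4231 in Oct4-GFP-ESC. Pou5f1, the gene the reporter follows, had 609 FPKM in DR-ESC, 0.276 in NPC(GFP-), 1037 in Oct4-GFP-H-ESC and 1881 in Oct4-GFP-ESC. The library labelled as sorted for a high reporter signal thus had less Pou5f1 than the unsorted one, a log2 ratio of -0.86, or -0.09 with the abundance trend removed. The 8 neural progenitor markers summed to 80.5 FPKM in DR-ESC, 597 in NPC(GFP-), 18.6 in Oct4-GFP-H-ESC and 24.3 in Oct4-GFP-ESC. The 5 neuron markers with a row summed to 52.0 FPKM in DR-ESC, 501 in NPC(GFP-), 70.1 in Oct4-GFP-H-ESC and 168 in Oct4-GFP-ESC. Dcx had 34.6 FPKM and Tubb3 342 FPKM in NPC(GFP-), so neuron markers were present in that library. Stmn2 differed, with 59.0 FPKM in NPC(GFP-) and its highest level, 117 FPKM, in Oct4-GFP-ESC. The 6 fibroblast markers with a row summed to 6.65 FPKM in DR-ESC, 5.47 in NPC(GFP-), 239.9 in Oct4-GFP-H-ESC and 246 in Oct4-GFP-ESC. In such bulk RNA, fewer cells of a type and less RNA per cell cannot be told apart.

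Across the 3 stem cell libraries, DR-ESC included, 37 of the 42 genes stayed within a 2-fold span, or 88.1%, against 82.3% of all genes. Their median span was 0.47 on the log2 scale, against 0.58 for all genes. Over the 4 libraries 22 of the 42 stayed within it, or 52.4%, against 48.8% of all genes. NPC(GFP-) had the lowest level of the 4 libraries for 52.4% of the 42 genes, against 40.8% of all genes, and the highest for 28.6%, against 36.1%. These spans and orders of the 42 genes lie near those of all genes. Dnmt3l had 54.6 FPKM in DR-ESC, 0.841 in NPC(GFP-), 277 in Oct4-GFP-H-ESC and 219.7 in Oct4-GFP-ESC, so DR-ESC stood between NPC(GFP-) and both other libraries. Uhrf1 had 103 FPKM in DR-ESC, 79.4 in NPC(GFP-), 111 in Oct4-GFP-H-ESC and 145 in Oct4-GFP-ESC. Ezh2 had 55.4 FPKM in DR-ESC, 73.3 in NPC(GFP-), 61.1 in Oct4-GFP-H-ESC and 94.5 in Oct4-GFP-ESC. For both of these genes the unsorted line was highest as deposited, and that library also had the largest summed FPKM. With the abundance trend removed, the log2 ratios of Uhrf1 to it were 0.39 in DR-ESC and 0.26 in Oct4-GFP-H-ESC. Those of Ezh2 were -0.05 and -0.04.

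**Figure D1:**
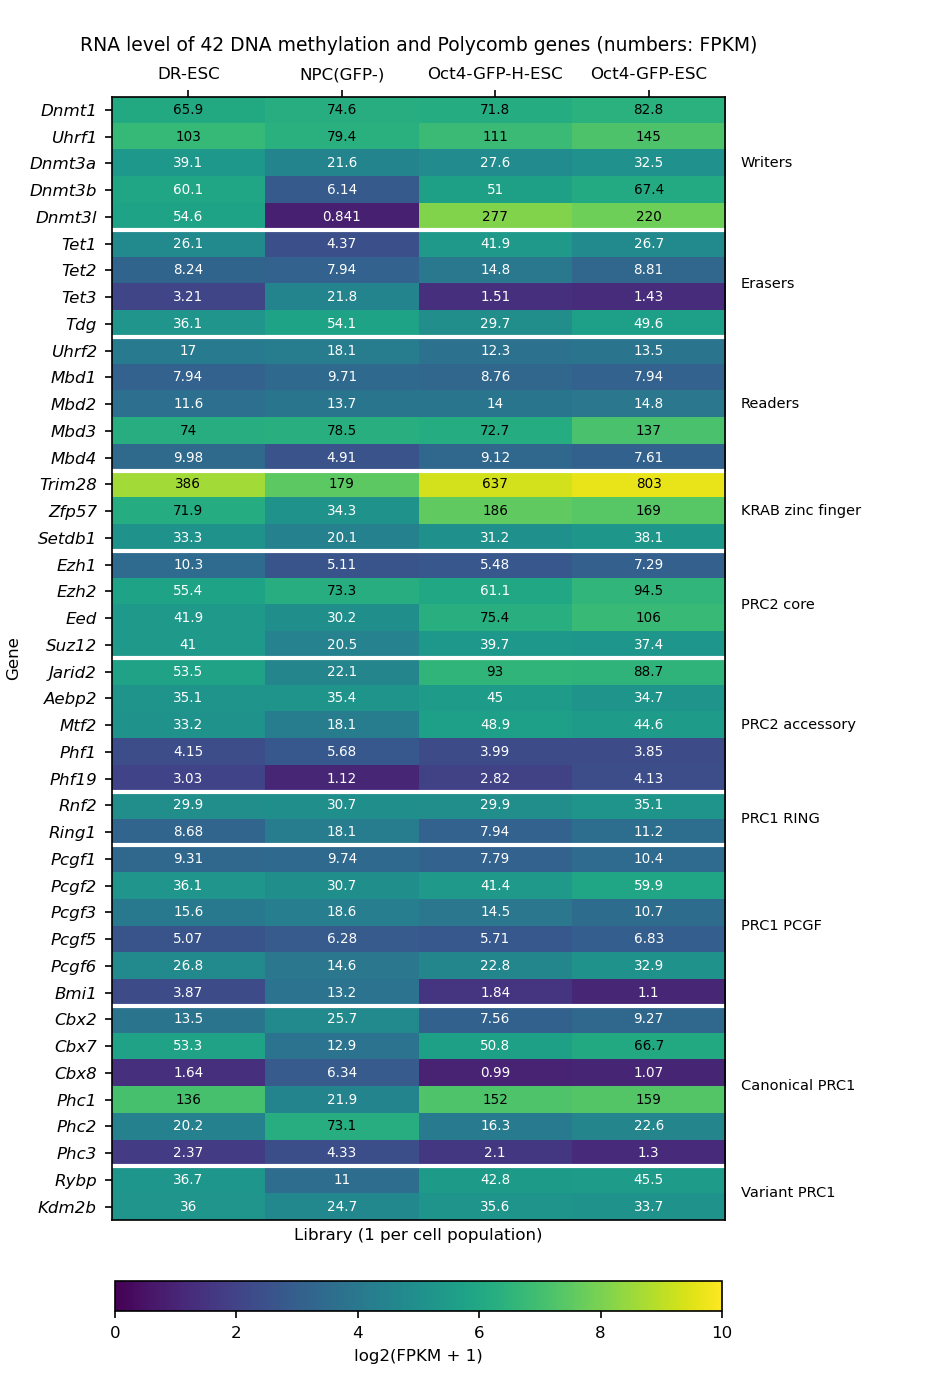
Levels of the 42 genes in the 4 libraries. Rows are genes grouped by role, columns are libraries, the number in each cell is FPKM and the colour is log2(FPKM + 1). Dnmt3l is at 0.841 FPKM in NPC(GFP-) and 277 in Oct4-GFP-H-ESC, while Dnmt1 stays between 65.9 and 82.8 in the 4 libraries.

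NPC(GFP-) against Oct4-GFP-H-ESC compares this machinery between GFP-negative cells of the neural protocol and undifferentiated cells. Of the 42 genes, 11 were lower in NPC(GFP-), or 26.2%, against 16.2% of all 12864 genes compared. A further 6 were higher, or 14.3%, against 18.5% of all genes. The median log2 ratio of the 42 genes was -0.34, against 0.03 for all genes. With the abundance trend removed 12 were lower and 6 higher, against 15.3% and 17% of all genes, as Mbd4 (-1.015) and Tdg (1.012) joined and Ring1 left. The lower genes were Dnmt3b, Dnmt3l, Tet1, Trim28, Zfp57, Eed, Jarid2, Mtf2, Cbx7, Phc1 and Rybp, and the higher ones were Tet3, Ring1, Bmi1, Cbx2, Cbx8 and Phc2.

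Among the writers, the difference lay in the de novo branch. Dnmt3l (chromosome 10, 78042287 to 78063622, GRCm38.p6), a catalytically inactive partner that stimulates Dnmt3a and Dnmt3b, had 0.841 FPKM in NPC(GFP-) and 277 FPKM in Oct4-GFP-H-ESC, a log2 ratio of -7.24. It was also the most changed of the 42 genes over the 4 libraries. Dnmt3b had 6.14 FPKM in NPC(GFP-) and 51.0 in Oct4-GFP-H-ESC, a log2 ratio of -2.86. Dnmt3a, its paralogue, had 21.6 FPKM in NPC(GFP-) and 27.6 in Oct4-GFP-H-ESC, a log2 ratio of -0.34. The maintenance pair stayed under the 2-fold size, with Dnmt1 at 74.6 FPKM in NPC(GFP-) and 71.8 in Oct4-GFP-H-ESC, and Uhrf1 at 79.4 FPKM in NPC(GFP-) and 111 in Oct4-GFP-H-ESC. Both genes act at replicating DNA, and the 14 cell cycle markers summed to 1113 FPKM in NPC(GFP-) and 1677 in Oct4-GFP-H-ESC. Of these markers 3 were lower, or 21.4% against 16.2% of all genes, and 0 higher, against 18.5%, with a median log2 ratio of -0.66. With the abundance trend removed 0 were lower and the median was -0.35. Mki67 went the other way, at 0.65 as deposited. The part of the cell cycle in the level of Uhrf1 was not tested.

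The Tet genes exchanged places. Tet1 (chromosome 10), the main Tet enzyme of embryonic stem cells, had 4.37 FPKM in NPC(GFP-) and 41.9 in Oct4-GFP-H-ESC, a log2 ratio of -3.00. Tet3 (chromosome 6), the Tet enzyme of the zygote and of neural cells, had 21.8 FPKM in NPC(GFP-) and 1.51 in Oct4-GFP-H-ESC, a log2 ratio of 3.18. Tet2 lay between them, with 7.94 FPKM in NPC(GFP-) and 14.8 in Oct4-GFP-H-ESC. The summed Tet level was 34.1 FPKM in NPC(GFP-) and 58.3 in Oct4-GFP-H-ESC, so the exchange of members was larger than the change of the sum. Tdg had 54.1 FPKM in NPC(GFP-) and 29.7 in Oct4-GFP-H-ESC, a log2 ratio of 0.84.

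Readers of methylated DNA differed little. Mbd1 and Mbd2, which bind methylated CpG, had log2 ratios of 0.13 and -0.02. Mbd3, a subunit of the NuRD deacetylase complex, had 78.5 FPKM in NPC(GFP-) and 72.7 in Oct4-GFP-H-ESC. Uhrf2 had a log2 ratio of 0.52. Mbd4, a glycosylase that repairs deaminated CpG, was the lowest of the group at -0.78.

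Of the KRAB zinc finger genes, Zfp57 (chromosome 17), which guards methylation at imprinting control regions, had 34.3 FPKM in NPC(GFP-) and 186 in Oct4-GFP-H-ESC, a log2 ratio of -2.41. Trim28, the corepressor that such zinc fingers recruit, had 179 FPKM in NPC(GFP-) and 637 in Oct4-GFP-H-ESC, a log2 ratio of -1.82. Trim28 was still the most abundant of the 42 genes in NPC(GFP-), as it was in each stem cell library. Setdb1, the histone methyltransferase that Trim28 brings in, had 20.1 FPKM in NPC(GFP-) and 31.2 in Oct4-GFP-H-ESC, under the 2-fold size.

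PRC2 differed subunit by subunit. Of its 9 genes 3 were lower, or 33.3% against 16.2% of all genes, and 0 were higher, against 18.5%. The median log2 ratio was -0.85. Ezh2, the main catalytic subunit, had 73.3 FPKM in NPC(GFP-) and 61.1 in Oct4-GFP-H-ESC, and its paralogue Ezh1 had 5.11 FPKM in NPC(GFP-) and 5.48 in Oct4-GFP-H-ESC. Eed, which reads the PRC2 mark, had 30.2 FPKM in NPC(GFP-) and 75.4 in Oct4-GFP-H-ESC, a log2 ratio of -1.29 (-0.96 with equal sums of FPKM). Suz12, the scaffold subunit, had 20.5 FPKM in NPC(GFP-) and 39.7 in Oct4-GFP-H-ESC, a log2 ratio of -0.92. Ezh2 and Suz12 thus stayed under the 2-fold size, and Eed was the core subunit past it.

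Accessory subunits of PRC2 help to bring it to its targets. Jarid2 had 22.1 FPKM in NPC(GFP-) and 93.04 in Oct4-GFP-H-ESC, a log2 ratio of -2.02. Aebp2, found with Jarid2 in the same form of PRC2, had 35.4 FPKM in NPC(GFP-) and 44.99 in Oct4-GFP-H-ESC. Of the 3 Polycomb-like genes, Mtf2 had 18.1 FPKM in NPC(GFP-) and 48.9 in Oct4-GFP-H-ESC (log2 ratio -1.39). Phf19 had 1.12 FPKM in NPC(GFP-) and 2.82 in Oct4-GFP-H-ESC, and Phf1 had 5.68 FPKM in NPC(GFP-) and 3.99 in Oct4-GFP-H-ESC. Mtf2 kept the largest part of the Polycomb-like sum, at 72.7% in NPC(GFP-) and 87.8% in Oct4-GFP-H-ESC.

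In PRC1, 5 of 16 genes were higher in NPC(GFP-), or 31.2% against 18.5% of all genes. Another 3 were lower, or 18.8% against 16.2%, and the median log2 ratio was 0.20. With the abundance trend removed 4 were higher and 3 lower, against 17% and 15.3% of all genes. The catalytic RING subunit Rnf2 had 30.7 FPKM in NPC(GFP-) and 29.9 in Oct4-GFP-H-ESC. Its paralogue Ring1 stood at 18.1 FPKM in NPC(GFP-) and 7.94 in Oct4-GFP-H-ESC, with a log2 ratio of 1.09, or 0.95 once the abundance trend of all genes was taken out. Of the 6 Pcgf genes, whose proteins decide which form of PRC1 is built, Bmi1 (Pcgf4) was the one past the 2-fold size, with 13.2 FPKM in NPC(GFP-) and 1.84 in Oct4-GFP-H-ESC (log2 ratio 2.32). Pcgf2 (Mel18), the other Pcgf of canonical PRC1, had 30.7 FPKM in NPC(GFP-) and 41.4 in Oct4-GFP-H-ESC. The log2 ratios of Pcgf1, Pcgf3, Pcgf5 and Pcgf6, which belong to variant complexes, ran from -0.61 for Pcgf6 to 0.33 for Pcgf3.

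Cbx7 and Phc1 were lower in NPC(GFP-), and Cbx2, Cbx8 and Phc2 were higher. Cbx7, the main Cbx of embryonic stem cells, had 12.9 FPKM in NPC(GFP-) and 50.8 in Oct4-GFP-H-ESC, a log2 ratio of -1.90. Cbx2 had 25.7 FPKM in NPC(GFP-) and 7.56 in Oct4-GFP-H-ESC, a log2 ratio of 1.64, and Cbx8 had 6.34 FPKM in NPC(GFP-) and 0.990 in Oct4-GFP-H-ESC, a log2 ratio of 1.88. Phc1 (chromosome 6) had 21.9 FPKM in NPC(GFP-) and 152 in Oct4-GFP-H-ESC, a log2 ratio of -2.74. Phc2 (chromosome 4) had 73.1 FPKM in NPC(GFP-) and 16.3 in Oct4-GFP-H-ESC, a log2 ratio of 2.10. Phc3 had 4.33 FPKM in NPC(GFP-) and 2.10 in Oct4-GFP-H-ESC, a log2 ratio of 0.78.

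Of the variant PRC1 genes, Rybp, which stimulates the ubiquitin ligase, had 11.01 FPKM in NPC(GFP-) and 42.8 in Oct4-GFP-H-ESC, a log2 ratio of -1.87. Kdm2b, which binds unmethylated CpG islands, had 24.7 FPKM in NPC(GFP-) and 35.6 in Oct4-GFP-H-ESC, under the 2-fold size. Yaf2, the paralogue of Rybp and not among the 43 genes, had 16.3 FPKM in NPC(GFP-) and 4.25 in Oct4-GFP-H-ESC, the opposite direction to Rybp. The neuron markers were higher in NPC(GFP-) for 4 of 5 genes, or 80% against 18.5% of all genes. Their summed level was 501 FPKM in NPC(GFP-) and 70.1 in Oct4-GFP-H-ESC. The part of neuronal RNA in the levels of Tet3, Bmi1, Phc2 and the Cbx genes was not tested.

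**Figure D2:**
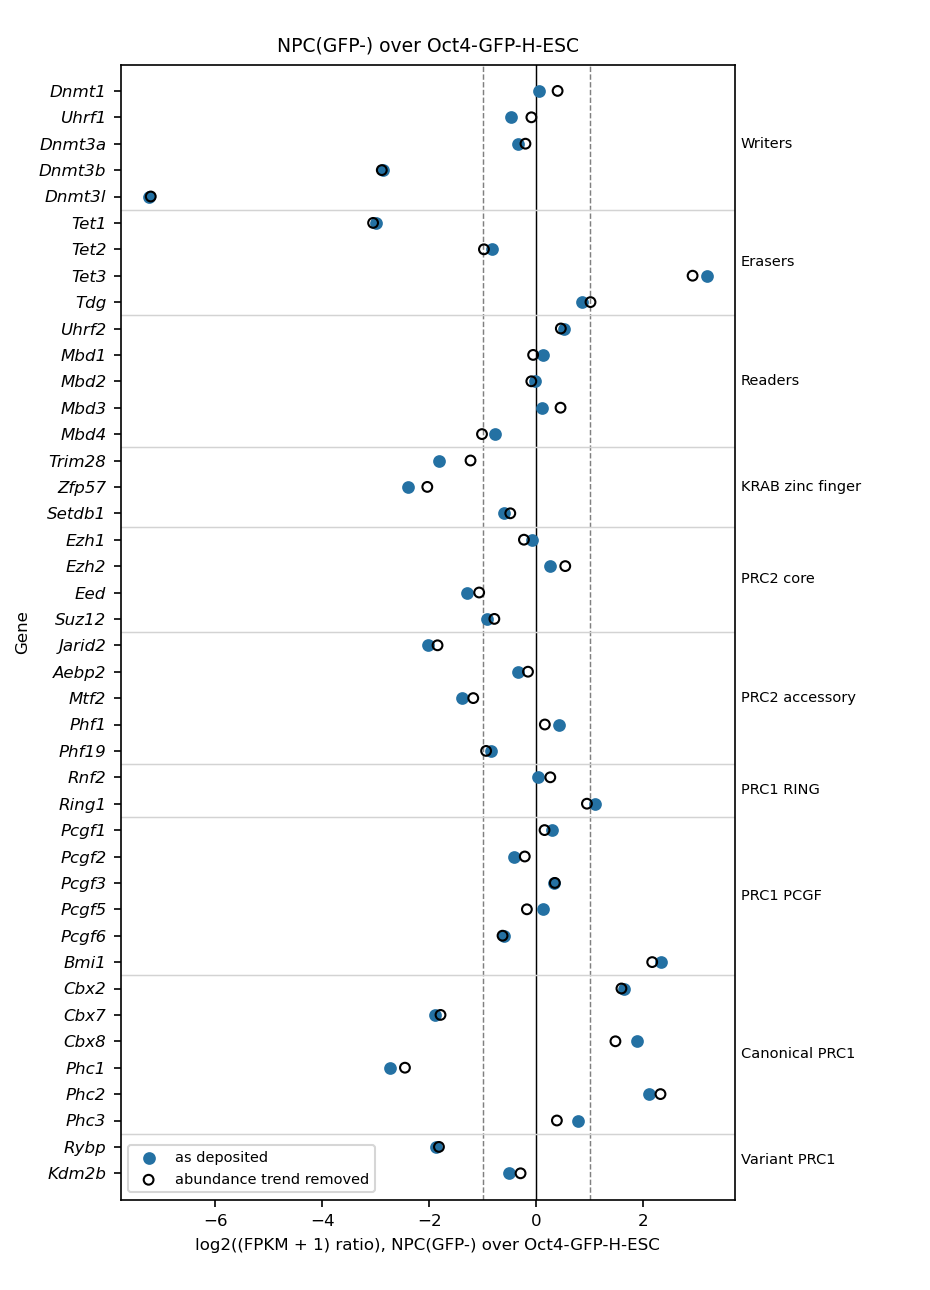
Log2 ratio of NPC(GFP-) over Oct4-GFP-H-ESC for the 42 genes, grouped by role. Filled points use the deposited values, open points have the abundance trend of all genes removed, and dashed lines mark the 2-fold size. Dnmt3l lies at -7.24 and Tet3 at 3.18, the lowest and highest filled points.

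A share within a family compares paralogues inside a single library and does not depend on a single scaling factor per library. A trend with abundance between libraries can still shift it, since paralogues differ in abundance. Dnmt3l made up 35.5% of the summed FPKM of Dnmt3a, Dnmt3b and Dnmt3l in DR-ESC, 2.94% in NPC(GFP-), 77.9% in Oct4-GFP-H-ESC and 68.7% in Oct4-GFP-ESC. The family sum was 154 FPKM in DR-ESC, 28.6 in NPC(GFP-), 356 in Oct4-GFP-H-ESC and 319.5 in Oct4-GFP-ESC. Dnmt3a thus led in NPC(GFP-) with 75.6%, Dnmt3b led in DR-ESC with 39.1%, and Dnmt3l led in both other libraries.

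Tet3 made up 8.55% of the Tet sum in DR-ESC, 64.0% in NPC(GFP-), 2.59% in Oct4-GFP-H-ESC and 3.87% in Oct4-GFP-ESC. Phc2 made up 12.8% of the Phc sum in DR-ESC, 73.6% in NPC(GFP-), 9.58% in Oct4-GFP-H-ESC and 12.4% in Oct4-GFP-ESC. Of the sum of Cbx2, Cbx7 and Cbx8, Cbx2 took 19.7% in DR-ESC, 57.2% in NPC(GFP-), 12.7% in Oct4-GFP-H-ESC and 12.04% in Oct4-GFP-ESC. Cbx8 took 2.40% in DR-ESC, 14.1% in NPC(GFP-), 1.67% in Oct4-GFP-H-ESC and 1.39% in Oct4-GFP-ESC. In these 3 families the leading paralogue was another in NPC(GFP-) than in the 3 stem cell libraries.

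The enzymes of Polycomb did not change their leading paralogue. Ezh2 made up 84.3% of the Ezh sum in DR-ESC, 93.5% in NPC(GFP-), 91.8% in Oct4-GFP-H-ESC and 92.8% in Oct4-GFP-ESC. Rnf2 made up 77.5% of the RING sum in DR-ESC, 63.0% in NPC(GFP-), 79.01% in Oct4-GFP-H-ESC and 75.8% in Oct4-GFP-ESC. Pcgf2 led the Pcgf family in the 4 libraries, and Bmi1 took 3.997% of it in DR-ESC, 14.2% in NPC(GFP-), 1.96% in Oct4-GFP-H-ESC and 0.899% in Oct4-GFP-ESC.

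**Figure D3:**
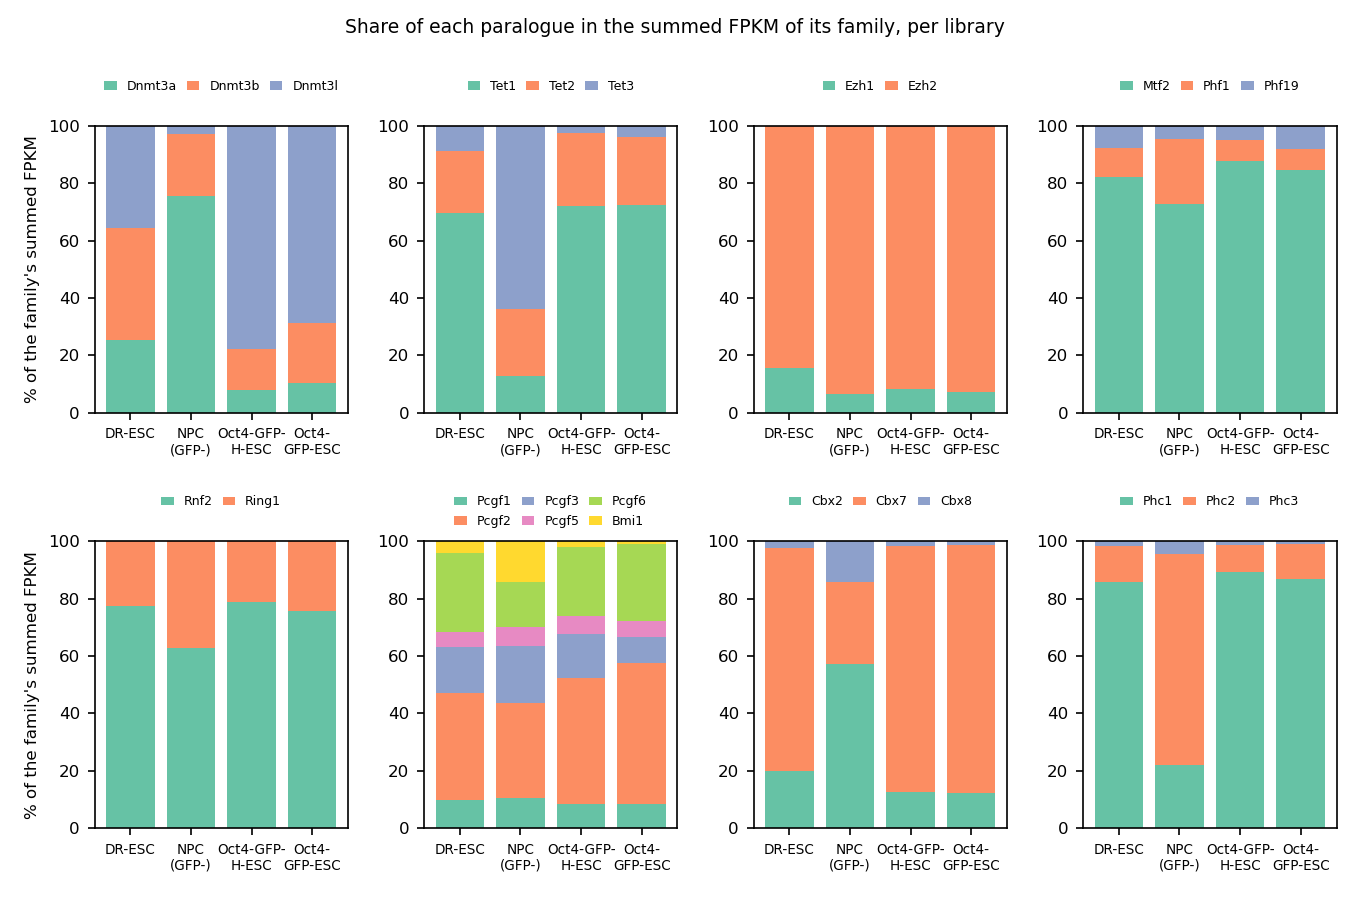
Share of each paralogue in the summed FPKM of its family, in percent, for 8 families and 4 libraries. Colours are genes and each bar sums to 100%. The bars of NPC(GFP-) stand apart for the Dnmt3, Tet, Cbx and Phc families, with Tet3 at 64.0% and Phc2 at 73.6%, and the Dnmt3 bar of DR-ESC lies between, with Dnmt3l at 35.5%.

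Promoter sequence is shown for the genes that differed most between NPC(GFP-) and Oct4-GFP-H-ESC, since CpG sites are what the Dnmt and Tet enzymes act on and Kdm2b binds. RefSeq promoter windows (build GRCm38.p6) matched 38 of the 43 genes with 58 start sites. In the 250 bases before each start, these windows held a median of 17 CG pairs, against 6 over all 32851 windows of the reference. GGGCGG, searched on both strands and partly overlapping CG, occurred in 69.0% of the windows of these genes and in 32.7% of all windows, and TATAAA on both strands in 5.17% and 12.4%. At least 1 CG was present in 92.1% of all windows. The reference windows belong to 27025 genes and the expression table holds 13180, so this background is not matched to the 43 genes for expression.

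Shown are the farthest upstream of the 3 RefSeq starts of Dnmt3l, then the 3 lowest and the 3 highest genes by log2 ratio among those with a single start, chosen with their values known. Each is the 250 bases before the start, 5′ to 3′ on the strand of the gene, with CG pairs in capitals. The windows are chr10:78042037-78042286 (plus strand) for Dnmt3l, chr10:62887325-62887574 (minus) for Tet1, chr2:153649199-153649448 (plus) for Dnmt3b and chr6:122340228-122340477 (minus) for Phc1. Those of the higher genes are chr6:83441679-83441928 (minus) for Tet3, chr2:18676768-18677017 (plus) for Bmi1 and chr11:119040914-119041163 (minus) for Cbx8.
Dnmt3l: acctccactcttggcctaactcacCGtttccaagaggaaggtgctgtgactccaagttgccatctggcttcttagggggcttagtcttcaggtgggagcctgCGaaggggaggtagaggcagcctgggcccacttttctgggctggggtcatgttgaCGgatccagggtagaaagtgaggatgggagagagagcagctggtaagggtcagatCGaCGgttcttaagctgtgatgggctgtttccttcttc
Tet1: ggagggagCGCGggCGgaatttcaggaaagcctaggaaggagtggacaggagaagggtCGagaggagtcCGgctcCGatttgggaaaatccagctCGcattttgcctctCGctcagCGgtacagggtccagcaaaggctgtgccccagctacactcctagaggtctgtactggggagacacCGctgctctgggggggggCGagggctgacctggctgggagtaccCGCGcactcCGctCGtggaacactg
Dnmt3b: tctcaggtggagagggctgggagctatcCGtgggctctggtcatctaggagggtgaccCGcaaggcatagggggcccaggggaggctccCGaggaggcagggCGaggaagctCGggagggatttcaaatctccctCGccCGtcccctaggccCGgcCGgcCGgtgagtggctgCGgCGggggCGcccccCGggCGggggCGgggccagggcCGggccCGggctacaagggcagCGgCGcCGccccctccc
Phc1: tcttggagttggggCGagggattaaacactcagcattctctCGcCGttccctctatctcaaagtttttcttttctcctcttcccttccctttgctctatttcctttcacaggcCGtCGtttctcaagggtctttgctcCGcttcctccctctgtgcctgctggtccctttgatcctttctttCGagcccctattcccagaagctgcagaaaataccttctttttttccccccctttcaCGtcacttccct
Tet3: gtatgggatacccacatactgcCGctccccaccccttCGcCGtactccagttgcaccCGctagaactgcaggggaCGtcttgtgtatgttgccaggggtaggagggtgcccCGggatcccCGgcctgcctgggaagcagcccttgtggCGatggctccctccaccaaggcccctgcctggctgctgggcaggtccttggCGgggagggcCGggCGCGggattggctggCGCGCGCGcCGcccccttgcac
Bmi1: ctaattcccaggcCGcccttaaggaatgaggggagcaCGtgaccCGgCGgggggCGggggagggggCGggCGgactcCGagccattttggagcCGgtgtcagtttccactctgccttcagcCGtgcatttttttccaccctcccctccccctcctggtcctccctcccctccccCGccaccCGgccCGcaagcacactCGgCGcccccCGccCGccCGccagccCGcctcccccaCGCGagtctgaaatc
Cbx8: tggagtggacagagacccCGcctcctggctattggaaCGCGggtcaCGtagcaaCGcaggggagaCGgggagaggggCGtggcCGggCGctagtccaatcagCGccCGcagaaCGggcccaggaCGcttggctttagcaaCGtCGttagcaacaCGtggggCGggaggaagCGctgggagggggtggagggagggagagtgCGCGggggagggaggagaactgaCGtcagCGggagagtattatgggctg

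Dnmt3l had few CG pairs, with 5 in the window shown and 4 and 3 before its other starts, and Zfp57 likewise had 3, 6 and 7 before its 3 starts. Phc1 had 8 and Tet1 had 15. Dnmt3b, with a low level in NPC(GFP-) too, had 21 CG pairs, and as many occur in 16.3% of all windows. The 3 higher genes Tet3, Bmi1 and Cbx8 had 17, 21 and 22. Low and high CG counts therefore both occurred among the lower genes, and these counts describe sequence alone.

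DR-ESC against Oct4-GFP-H-ESC compares the GFP-positive cells that had passed through the neural protocol with stem cells of high reporter signal. The machinery was close to level. Of the 42 genes 2 were lower in DR-ESC, or 4.76%, against 3.91% of all 12128 genes compared, and 0 were higher, against 3.65% of all genes. These shares lie near the background. Removing the abundance trend left the counts at 2 and 0, against 4.18% and 3.22% of all genes. The median log2 ratio was 0.04 for the 42 genes and -0.00 for all genes.

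The 2 lower genes were Dnmt3l and Zfp57. Dnmt3l had 54.6 FPKM in DR-ESC against 277 in Oct4-GFP-H-ESC and 219.7 in Oct4-GFP-ESC, a log2 ratio of -2.32 to the sorted and -1.99 to the unsorted library. It stayed past the 2-fold size under each of the 7 alternatives, from -2.34 to -2.08 against Oct4-GFP-H-ESC and from -2.01 to -1.13 against Oct4-GFP-ESC. Zfp57 had 71.9 FPKM in DR-ESC against 186 in Oct4-GFP-H-ESC and 169 in Oct4-GFP-ESC, with log2 ratios of -1.36 and -1.22. Against Oct4-GFP-ESC the value of Zfp57 was -0.36 with the abundance trend removed. The de novo enzymes that Dnmt3l assists stayed under the 2-fold size. Dnmt3a had 39.1 FPKM in DR-ESC against 27.6 in Oct4-GFP-H-ESC and 32.5 in Oct4-GFP-ESC, and Dnmt3b had 60.1 FPKM in DR-ESC against 51.0 in Oct4-GFP-H-ESC and 67.4 in Oct4-GFP-ESC.

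Several genes were less abundant in DR-ESC than in Oct4-GFP-H-ESC but fell short of the 2-fold size. Trim28, Eed, Jarid2, Tet1 and Tet2 fell short of it under each of the 7 alternatives too. Trim28 had 386 FPKM in DR-ESC against 637 in Oct4-GFP-H-ESC and 803 in Oct4-GFP-ESC. Eed had 41.9 FPKM in DR-ESC against 75.4 in Oct4-GFP-H-ESC and 106 in Oct4-GFP-ESC, and Jarid2 had 53.5 FPKM in DR-ESC against 93.04 in Oct4-GFP-H-ESC and 88.7 in Oct4-GFP-ESC. Their log2 ratios of DR-ESC to Oct4-GFP-H-ESC were -0.72, -0.83 and -0.79. Tet2 had 8.24 FPKM in DR-ESC against 14.8 in Oct4-GFP-H-ESC, and Tet1 had 26.1 FPKM in DR-ESC against 41.9 in Oct4-GFP-H-ESC, log2 ratios of -0.78 and -0.67. Both Tet genes were near level against Oct4-GFP-ESC, at 8.81 and 26.7 FPKM there.

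On the upper side Ezh1 had 10.3 FPKM in DR-ESC against 5.48 in Oct4-GFP-H-ESC and 7.29 in Oct4-GFP-ESC, a log2 ratio of 0.80 to the sorted library. Bmi1 had 3.87 FPKM in DR-ESC against 1.84 in Oct4-GFP-H-ESC and 1.10 in Oct4-GFP-ESC, and Tet3 had 3.21 FPKM in DR-ESC against 1.51 in Oct4-GFP-H-ESC and 1.43 in Oct4-GFP-ESC. Cbx2 had 13.5 FPKM in DR-ESC against 7.56 in Oct4-GFP-H-ESC and 9.27 in Oct4-GFP-ESC. With a pseudocount of 0.1, Tet3 and Bmi1 passed the 2-fold size against Oct4-GFP-H-ESC, at 1.04 and 1.03. Neural progenitor markers were also higher in DR-ESC than in Oct4-GFP-H-ESC, for 6 of 7 genes compared, or 85.7% against 3.65% of all genes. None of them was lower, against 3.91% of all genes. Among the higher ones was Pax6, at 12.7 FPKM in DR-ESC against 0.540 in Oct4-GFP-H-ESC. The part of neural progenitor RNA in the levels of Tet3, Bmi1 and Cbx2 was not tested.

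DR-ESC against Oct4-GFP-ESC sets the same DR-ESC library against the unsorted reporter line. Of the 42 genes 4 were lower in DR-ESC, or 9.52%, against 12.2% of all 12260 genes, and 1 was higher, or 2.38%, against 2.95%. The lower genes were Dnmt3l (-1.99), Eed (-1.32), Zfp57 (-1.22) and Trim28 (-1.05), and the higher one was Bmi1 (1.22). The median log2 ratio was -0.20 for the 42 genes and -0.29 for all genes. In this pair the log2 ratio of all genes ran with abundance. With that trend removed 1 gene was lower (Dnmt3l, -1.13) and 1 higher (Bmi1, 1.22), against 4.6% and 4.62% of all genes, and the median of the 42 was 0.31. With equal sums of FPKM 9 were higher and 1 lower, against 1879 and 266 of all 12260 genes. A median ratio of 0 gave 2 and 1, against 1110 and 423 of all genes. Over the 7 alternatives Eed ran from -1.34 to -0.54, Zfp57 from -1.23 to -0.36 and Trim28 from -1.06 to -0.08, so their 2-fold calls, but not their direction, depended on the scale. Dnmt3l kept its call. The fibroblast markers were lower in DR-ESC for 6 of 6 genes against both stem cell libraries, although Oct4-GFP-H-ESC had been sorted for GFP signal. The part of feeder RNA in the levels of the 42 genes was not tested.

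**Figure D4:**
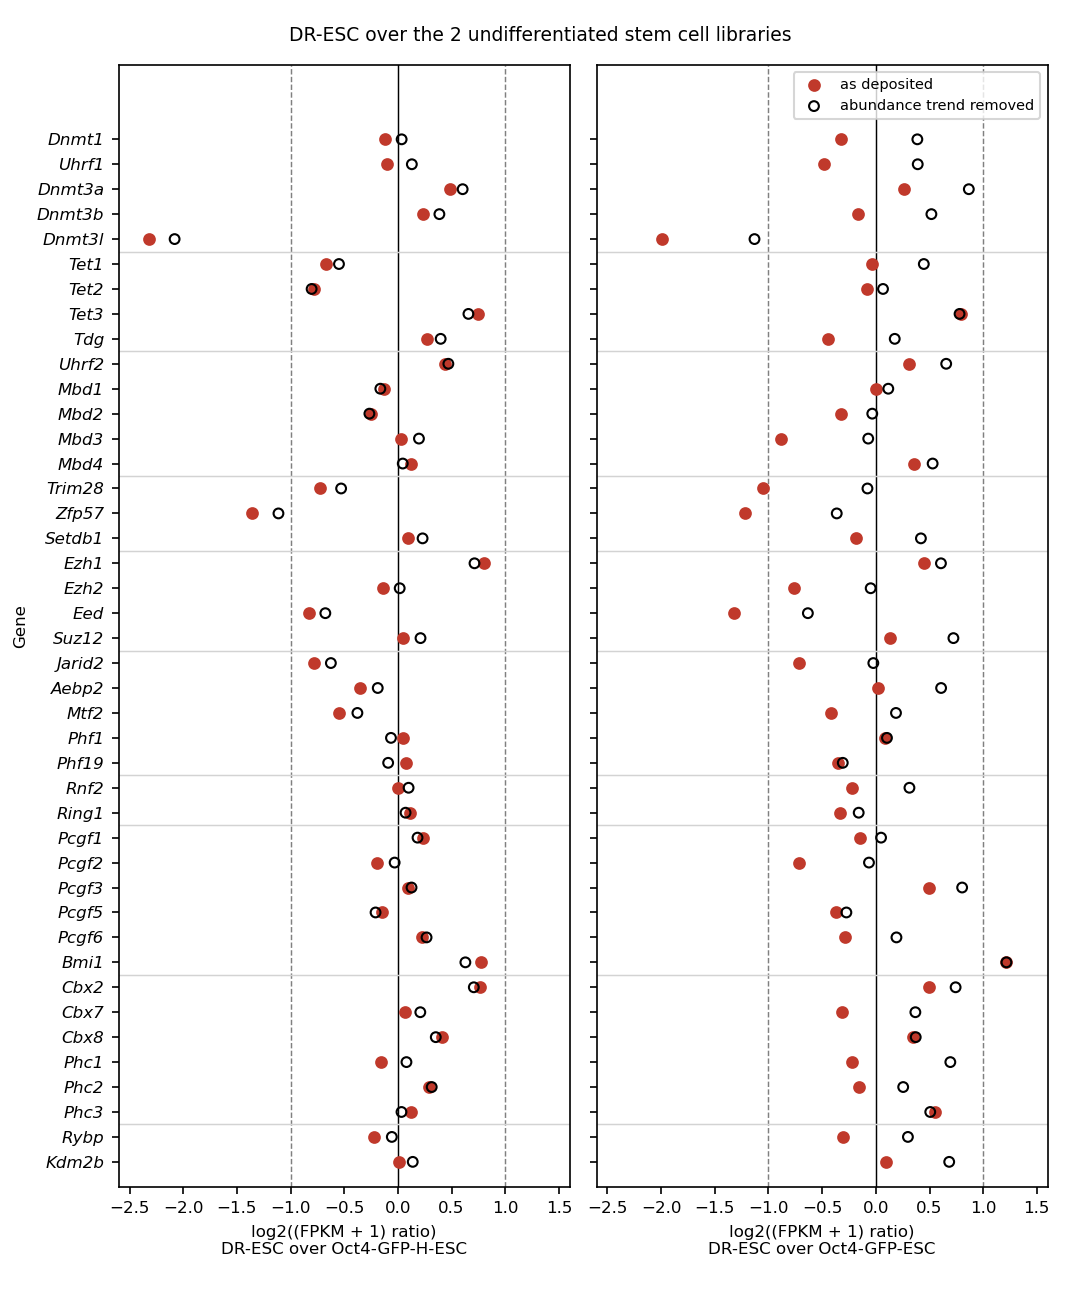
Log2 ratio of DR-ESC over Oct4-GFP-H-ESC (left) and over Oct4-GFP-ESC (right) for the 42 genes, in the order of the level plot. Filled points use the deposited values, open points have the abundance trend removed, and dashed lines mark the 2-fold size. Dnmt3l lies beyond the lower line in both panels by both measures, and Bmi1 beyond the upper line on the right, at 1.22. The 2 panels share the DR-ESC library.

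DR-ESC against NPC(GFP-) compares GFP-positive with GFP-negative cells of the day 8 neural protocol, and the DR-ESC had been grown further in stem cell medium before sequencing. Of the 42 genes 9 were higher in DR-ESC, or 21.4%, against 11.6% of all 12649 genes, and 4 were lower, or 9.52%, against 14.2%. Dnmt3l led, with 54.6 FPKM in DR-ESC and 0.841 in NPC(GFP-), a log2 ratio of 4.92. Dnmt3b had 60.1 FPKM in DR-ESC against 6.14 in NPC(GFP-), a log2 ratio of 3.10. Phc1 had 136 FPKM in DR-ESC against 21.9 in NPC(GFP-), a log2 ratio of 2.58. Next came Tet1, at 26.1 FPKM in DR-ESC against 4.37 in NPC(GFP-), and Cbx7, at 53.3 FPKM in DR-ESC against 12.9 in NPC(GFP-), with log2 ratios of 2.33 and 1.97. Rybp, Jarid2, Trim28 and Zfp57 followed, at 1.65, 1.24, 1.10 and 1.05. The 4 lower genes were Tet3 (-2.44), Phc2 (-1.80), Bmi1 (-1.54) and Cbx8 (-1.47). Trim28 and Zfp57 were at 0.90 and 0.85 with equal sums of FPKM, which left 7 genes higher and 6 lower. Ring1 (-1.17) and Cbx2 (-1.08) joined the lower genes on that scale. Of all 12649 genes 1224 were higher and 2227 lower by it. Removing the abundance trend left 8 and 4, against 11.6% and 13.3% of all genes. There Mbd4 (1.03) joined the higher genes, and Trim28 (0.75) and Zfp57 (0.98) left them.

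Oct4-GFP-H-ESC was set beside Oct4-GFP-ESC to compare cells sorted for a high reporter signal with unsorted ones. None of the 42 genes was higher or lower by the 2-fold size, against 0.983% of all 12003 genes higher and 2.67% lower. The median log2 ratio was -0.17 for the 42 genes and -0.31 for all genes. The range ran from -0.91 for Mbd3 (72.7 FPKM in Oct4-GFP-H-ESC and 137 in Oct4-GFP-ESC) to 0.69 for Tet2 (14.8 FPKM in Oct4-GFP-H-ESC and 8.81 in Oct4-GFP-ESC). Tet1 had 41.9 FPKM in Oct4-GFP-H-ESC and 26.7 in Oct4-GFP-ESC, a log2 ratio of 0.63. With the abundance trend removed Tet1, Dnmt3l and Tet2 were higher, at 1.09, 1.05 and 1.02, against 1.76% of all genes higher and 0.558% lower. The count was 2 with the median ratio at 0 and 4 with equal sums, against 349 and 515 of all 12003 genes. By any of these scales 0 were lower. Of all genes 38 were lower with the median ratio at 0 and 22 with equal sums, so few were lower there either.

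Writers and erasers of DNA methylation can be set beside the Polycomb complexes. In NPC(GFP-) against Oct4-GFP-H-ESC the median log2 ratio was -0.48 for the 9 writers and erasers, -0.85 for the 9 genes of PRC2 and 0.20 for the 16 genes of PRC1, with all genes at 0.03. By the 2-fold size 4 of 9 writers and erasers, 3 of 9 PRC2 genes and 8 of 16 PRC1 genes differed in either direction, against 34.7% of all genes. The counts of PRC2 and of the writers and erasers lie near the background, and groups this small cannot be ranked against it. The widest log2 ratios belonged to the writers and erasers, from -7.24 to 3.18, while PRC2 ran from -2.02 to 0.42 and PRC1 from -2.74 to 2.32. In DR-ESC against Oct4-GFP-H-ESC the medians of these groups were -0.10, -0.14 and 0.10, or 0.13, -0.09 and 0.13 with the abundance trend removed, which turned the sign for the writers and erasers. Against Oct4-GFP-ESC they were -0.16, -0.35 and -0.19, or 0.39, 0.10 and 0.34 with the trend removed, which turned the sign for each group. In both of these DR-ESC comparisons Dnmt3l was the gene of the writers, erasers and Polycomb subunits with the lowest ratio.

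Of 40 further genes of these pathways, chosen by name, 37 have a row. In NPC(GFP-) against Oct4-GFP-H-ESC 9 of them were higher, or 24.3% against 18.5% of all genes, and 8 lower, or 21.6% against 16.2%, with a median log2 ratio of 0.13. With the abundance trend removed 7 were higher and 9 lower, against 17% and 15.3% of all genes. Zbtb33 (0.84), Bcorl1 (0.79) and Sfmbt1 (0.71) lost their call, while Ehmt1 (1.09) joined the higher genes and Asxl2 (-1.05) the lower ones. The higher genes included Yaf2 (1.72), Auts2, a subunit of a variant PRC1 in neural cells (39.7 FPKM in NPC(GFP-) and 3.11 in Oct4-GFP-H-ESC), Gadd45g (2.36), Zbtb33 (1.22), Scmh1 (1.18), Bcorl1 (1.15) and Sfmbt1 (1.08). The lower genes were Dppa3 (-3.43), Gadd45b (-2.74), Gadd45a (-2.42), L3mbtl2 (-2.06), Hells (-1.63), Daxx (-1.39), Wdr5 (-1.22) and Sfmbt2 (-1.06). L3mbtl2 is a subunit of the Pcgf6 form of PRC1, and Hells is a remodeller needed for DNA methylation.

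In DR-ESC against Oct4-GFP-H-ESC 2 of the 37 were higher, Auts2 (8.01 FPKM in DR-ESC against 3.11 in Oct4-GFP-H-ESC) and Dppa3 (23.2 FPKM in DR-ESC against 10.4 in Oct4-GFP-H-ESC). Another 2 were lower, L3mbtl2 (26.8 FPKM in DR-ESC against 54.8 in Oct4-GFP-H-ESC) and Gadd45b (6.45 FPKM in DR-ESC against 15.2 in Oct4-GFP-H-ESC). The counts come to 5.41% in each direction, against 3.65% of all genes higher and 3.91% lower, and L3mbtl2 lost its call with the abundance trend removed (-0.85). Dppa3 binds Uhrf1 and opposes maintenance methylation. Against Oct4-GFP-ESC 0 were higher and 4 lower, or 10.8% against 12.2% of all genes, namely Gadd45a (-1.26), Ehmt2 (-1.08), L3mbtl2 (-1.07) and Daxx (-1.05). With the trend removed none of the 4 kept its call, at -0.57, -0.43, -0.48 and -0.51 in the same order of genes. In DR-ESC against NPC(GFP-) 6 of the 37 were higher, or 16.2% against 11.6% of all genes, and 7 lower, or 18.9% against 14.2%, and 7 and 5 with the trend removed. Between the sorted and unsorted stem cells 1 of 36 was lower, or 2.78% against 2.67% of all genes, namely Dppa3, with 10.4 FPKM in Oct4-GFP-H-ESC and 27.4 in Oct4-GFP-ESC, a log2 ratio of -1.32. The core PRC2 partners Rbbp4 and Rbbp7 stayed under the 2-fold size in each of the 5 comparisons.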

How the data were processed

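RNA levels came from 1 table of 4 RNA libraries. The authors deposited log2 values, which the file holds as log2(FPKM + 1): after 2 to the power of the value minus 1, 99.7% of non-zero values have at most 6 significant digits. The submitters' processing notes name TopHat2 2.0.9, Bowtie 0.12.8, CASAVA 1.8, DESeq2, HTSeq and mm10, with no role or order, and the strand of counting is not given in the sources used here. Of 13199 rows, 19 whose symbol had become a date were left out. Summed FPKM ran from 345804 in NPC(GFP-) to 687303 in Oct4-GFP-ESC.

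Log2((FPKM + 1) ratios) were computed for 5 comparisons, which share libraries, where the larger value of a gene reached 1 FPKM, and ratios past a 2-fold size were counted. No test is possible with 1 library per group. Alternatives were pseudocounts of 0.1 and 5, no minimum and a minimum of 5 FPKM, a median ratio of 0, equal sums, and removal of the abundance trend by a running median over 401 genes. Scripts (Python 3.11.15, pandas 2.3.3) were tested on simulated data. Members with a row were all named. The members and lists were chosen with earlier results of these data known. Sequences are from RefSeq, GRCm38.p6. Some genes of the wider pathway list are not reported here.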

Additional observations from a re-analysis of the deposited data

How the results depend on the processing

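Of 37 values of a gene in a comparison that passed the 2-fold size, 37 still did with a pseudocount of 0.1, 32 with 5, 34 with the median ratio set to 0, 31 with equal sums of FPKM and 31 with the abundance trend removed, and 0 changed sign while called. Genes higher in DR-ESC relative to Oct4-GFP-ESC numbered 1 as reported, 2 with a pseudocount of 0.1, 0 with 5, 0 with a minimum of 5 FPKM, 2 with the median ratio set to 0 and 9 with equal sums. Of all 12260 genes in this pair 362 were higher as reported, 1110 with the median ratio set to 0 and 1879 with equal sums. Pseudocounts of 0.1 and 5 gave 730 and 82, and the minimum of 5 FPKM gave 198 of 8686 genes. Genes lower there numbered 4 as reported and 1 with the median ratio set to 0, with equal sums or with the trend removed. Of all genes 1492, 423, 266 and 564 were lower, in that order. Genes higher in DR-ESC than in Oct4-GFP-H-ESC numbered 0 as reported and 2 with a pseudocount of 0.1. Of all 12128 genes compared there, 443 and 844 were higher, in that order. Genes higher in Oct4-GFP-H-ESC than in Oct4-GFP-ESC numbered 0 as reported, 2 with the median ratio set to 0, 4 with equal sums and 3 with the trend removed. Of all 12003 genes in this pair 118, 349, 515 and 211 were higher, in that order. Bmi1 in DR-ESC against Oct4-GFP-ESC was at 0.54 with a pseudocount of 5. Scaling moved the median of all genes in DR-ESC against Oct4-GFP-ESC, which was -0.29 as deposited, to 0.13 with the median ratio set to 0 and 0.39 with equal sums, and in Oct4-GFP-H-ESC compared with Oct4-GFP-ESC, -0.31 as deposited, to 0.09 and 0.24. In NPC(GFP-) against Oct4-GFP-H-ESC equal sums moved it to 0.33. Which scale is right was not tested. No paired analysis was possible because each group has 1 library.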

Other observations

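Ratios of paralogues within a library do not depend on a single scaling factor per library, but a trend with abundance can shift them. In DR-ESC against Oct4-GFP-ESC, removing that trend moved the log2 ratio of Pcgf2 from -0.71 to -0.06 and left Bmi1 at 1.22. It moved Ezh2 from -0.76 to -0.05 and Ezh1 from 0.45 to 0.61. The ratios below use the deposited values. Ezh2 exceeded Ezh1 by 5.39-fold in DR-ESC, 14.3-fold in NPC(GFP-), 11.1-fold in Oct4-GFP-H-ESC and 12.97-fold in Oct4-GFP-ESC, so DR-ESC had the smallest ratio of the 4 libraries. Pcgf2 exceeded Bmi1 by 9.34-fold in DR-ESC, 2.33-fold in NPC(GFP-), 22.5-fold in Oct4-GFP-H-ESC and 54.6-fold in Oct4-GFP-ESC. Dnmt3l exceeded Dnmt3a by 1.40-fold in DR-ESC, 10.0-fold in Oct4-GFP-H-ESC and 6.76-fold in Oct4-GFP-ESC, and its ratio to Dnmt3a was 0.0390 in NPC(GFP-). For Pcgf2 over Bmi1 and for Dnmt3l over Dnmt3a, DR-ESC lay between NPC(GFP-) and both other libraries. With 1 library per population these ratios have no replicate check.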
